A study of Rattus norvegicus with 36 samples.

Results

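The 26S proteasome and the ATPase VCP are encoded by 35 genes under the rule used here, which takes Psma1 to Psma7, Psmb1 to Psmb7, Psmc1 to Psmc6, Psmd1 to Psmd14 and Vcp, and leaves out the immunoproteasome subunits and the PA28 activators. Of these 35 genes, 34 had a probe set (the group of short array probes that reads 1 transcript) assigned to them alone, out of 14217 such genes on the array. Where several probe sets were assigned to 1 gene, the brightest on average over the arrays was used. Psmb6 had only a probe set shared with Psmb6l1, and its joint value is given apart from the 34.

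Livers were taken from male Harlan Sprague Dawley rats that were 7 weeks old when the study began. PBDE47, a brominated flame retardant, was dissolved in corn oil and gavaged once a day for 5 days in a row. Vehicle rats received corn oil alone (0 mg/kg). The lowest of the 5 doses was 0.0485 mg/kg, followed by 0.485 and 4.85 mg/kg, and the top doses were 48.5 and 485 mg/kg. RNA from the left lobe, collected one day after the last dose, was hybridized to 36 Affymetrix arrays, 6 in each of the 6 groups, to ask which transcripts differ from vehicle at each dose. Each array is taken here as 1 animal. The labels do not say so outright, so p values measure the spread between arrays. Values are log2 RMA values (background-corrected, quantile-normalized probe set signals), and a difference of 1 is a doubling. A gene was called higher or lower at an adjusted p below 0.05 in limma, with adjustment over 31042 probe sets.

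The proteasome is the main protease for ubiquitin-tagged proteins in the cytosol and nucleus. Its barrel, the 20S core, stacks outer rings of alpha subunits (the Psma genes), which gate the entry pore, on inner rings of beta subunits (the Psmb genes), of which Psmb5, Psmb6 and Psmb7 carry the proteolytic sites. The 19S cap has a ring of ATPases (the Psmc genes) that unfold substrates, and non-ATPase subunits (most Psmd genes) that bind ubiquitin chains or form the lid. VCP is a separate ATPase that pulls ubiquitinated proteins out of membranes and complexes, including those leaving the endoplasmic reticulum, before the proteasome degrades them. In liver, the transcription factors NRF1 (Nfe2l1) and NRF2 (Nfe2l2) are known to act on proteasome genes through antioxidant response elements.

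Promoters of 4 of the genes are shown as examples with and without a short element that a known regulator family binds. Matches are over-represented among these examples, and a link between the element and the changes was not tested. The sequences are the 250 bases before each gene's start as given in a RefSeq promoter table, build GRCr8, written along the gene's own strand. Matches to TGACNNNGC (the core of the antioxidant response element, either strand) are in capitals. Psmd9 (chr12:39018265-39018514, minus strand) had 2 matches, Psmb5 (chr15:32047380-32047629, minus strand) and Vcp (chr5:62025388-62025637, minus strand) had 1 each, and Psma1 (chr1:177887858-177888107, minus strand) had 0.
Psmd9: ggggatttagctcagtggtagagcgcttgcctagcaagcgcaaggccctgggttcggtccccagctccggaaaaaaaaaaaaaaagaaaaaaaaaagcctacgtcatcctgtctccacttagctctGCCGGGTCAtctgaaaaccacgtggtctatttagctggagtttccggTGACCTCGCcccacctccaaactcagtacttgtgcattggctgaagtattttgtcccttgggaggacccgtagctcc
Psmb5: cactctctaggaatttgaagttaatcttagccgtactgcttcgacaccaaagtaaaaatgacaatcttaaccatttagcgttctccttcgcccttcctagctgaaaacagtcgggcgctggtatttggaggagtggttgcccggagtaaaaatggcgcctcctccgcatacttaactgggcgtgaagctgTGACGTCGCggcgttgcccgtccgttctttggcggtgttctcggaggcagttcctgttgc
Vcp: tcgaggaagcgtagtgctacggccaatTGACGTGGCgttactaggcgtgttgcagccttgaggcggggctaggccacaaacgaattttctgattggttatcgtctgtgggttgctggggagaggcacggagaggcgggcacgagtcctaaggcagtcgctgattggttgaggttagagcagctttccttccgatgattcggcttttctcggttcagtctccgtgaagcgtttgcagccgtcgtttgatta
Psma1: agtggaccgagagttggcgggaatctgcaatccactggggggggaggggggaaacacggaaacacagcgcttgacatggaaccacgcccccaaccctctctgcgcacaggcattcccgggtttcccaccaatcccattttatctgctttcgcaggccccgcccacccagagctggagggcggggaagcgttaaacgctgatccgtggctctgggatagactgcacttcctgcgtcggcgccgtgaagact

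The RefSeq promoter table held 30 of the 34 genes, without Psma7, Psmd12, Psmd14 and Psmd6. In 20 of the 30 the start used matched the start of the gene's RefSeq span. For the rest this match was not found, so their windows may lie elsewhere, which limits the shares below. TGACNNNGC was present in 6 of the 30 (20%), namely Psma3, Psmb2, Psmb5, Psmd1, Psmd9 and Vcp, and in 10.1% of all 33469 promoters of the same length. The matches in Psmb5, Psmd9 and Vcp are the capitals above. In all, 17 motifs were searched on both strands. The looser form TGANNNNGC, which holds every TGACNNNGC, was in 46.7% of the members and 34.7% of all promoters, and the stricter TGACTCAGC in 0 of 30 and 0.376%.

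Several general promoter elements were more frequent among the members than among all promoters. The GC box GGGCGG was in 66.7% against 30.5%, the ETS site CCGGAAG in 30.0% against 7.27%, and the CCAAT box in 56.7% against 34%. GATTGG, which overlaps CCAAT read on the other strand, was in 30.0% against 13.3%. GCGTG, the core of the xenobiotic response element, was in 53.3% against 25.9%, and the E-box CACGTG in 13.3% against 5.59%. The heat shock element pair TTCNNGAA was in 3.3% against 7.48% and the TATA box TATAAA in 13.3% against 12.9%. The CGCG element TCTCGCGAG was in 10% against 0.466%, the YY1 site AAGATGGCG in 6.7% against 0.693% and the nuclear respiratory factor site GCGCATGCG in 3.3% against 1.35%. Forms of these 3 that are 1 letter longer were in 6.7% against 0.341%, 0 of 30 against 0.335% and 3.3% against 0.762%. These shares describe letters in a window and were not tested.

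Nearly all proteasome transcripts rose at 485 mg/kg. At 485 mg/kg 33 of 34 genes were called higher than vehicle and 0 lower, where 7.81% of all probe sets were called higher and 7.22% lower. The median change of the 34 genes was 0.47 (1.38-fold), beside -0.01 over all probe sets, and the range ran from 0.13 for Psmd10 to 0.72 for Psmd14. In 32 of the 34 genes all 6 animals at 485 mg/kg lay above all 6 vehicle animals, as did 4.30% of all probe sets.

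At 48.5 mg/kg 22 of 34 genes were called higher and 0 lower, where 2.57% of all probe sets were called higher and 0.821% lower. The median change was 0.21, from 0.06 for Psmc6 to 0.39 for Psmd9, beside -0.01 over all probe sets. All 34 estimates were above 0, and 11 genes had no overlap between the 48.5 mg/kg and vehicle animals, as did 1.52% of all probe sets. A fit to the 12 arrays of these groups alone, which leaves fewer arrays to estimate the spread, called 9 genes: Psma7, Psmc3, Psmc5, Psmd2, Psmd5, Psmd6, Psmd8, Psmd9 and Psmd14. The other 13 calls at 48.5 mg/kg were each lost in 1 to 12 of 21 alternative settings, among them Psma6 in 10 and Psmb4 in 5.

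**Figure D1:**
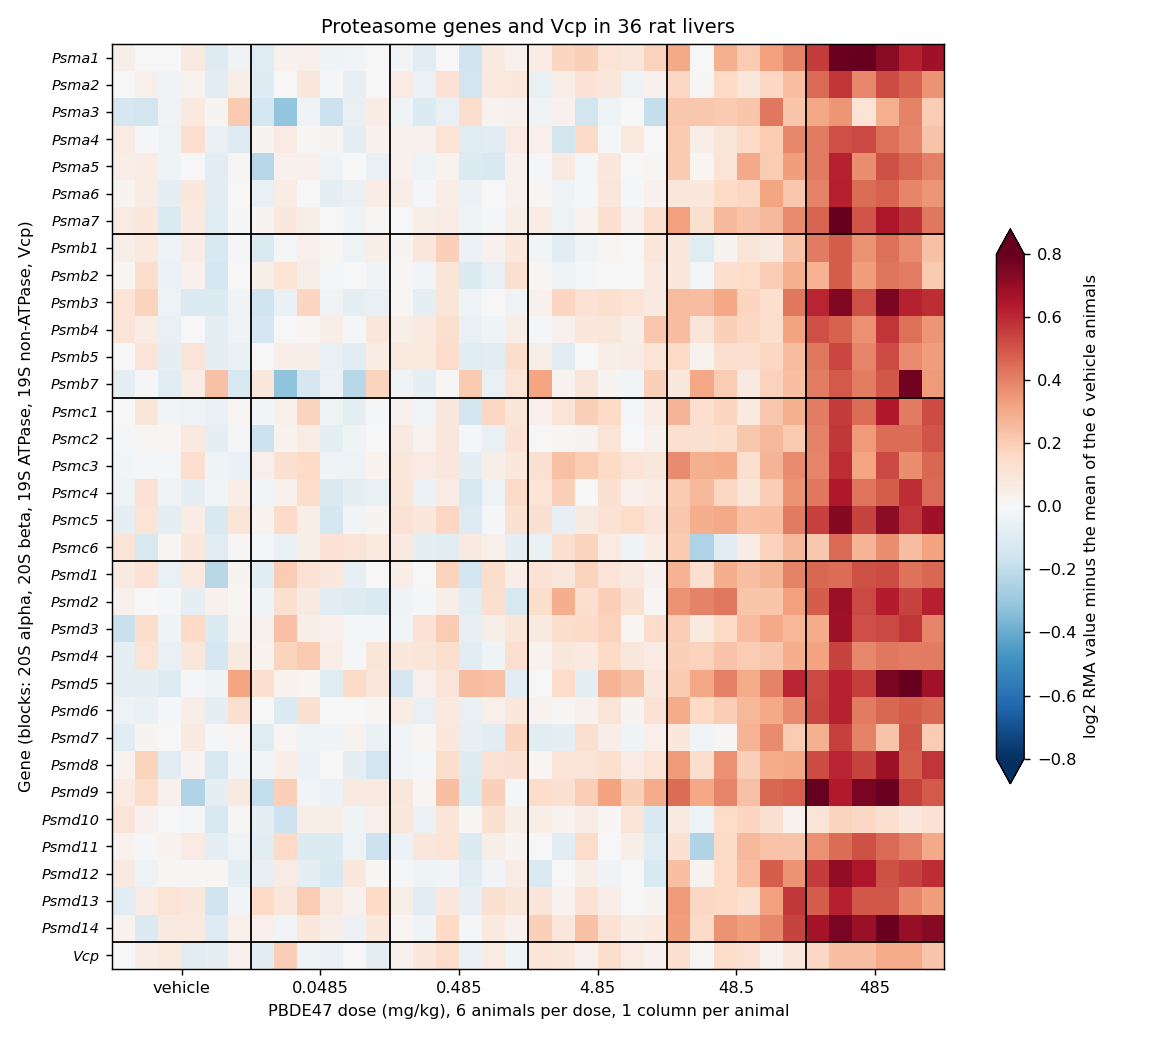
Heat map of the 34 genes (rows, in blocks by role) in the 36 animals (columns, grouped by dose in mg/kg), with colour giving the log2 RMA value minus the mean of the 6 vehicle animals; the scale is cut at -0.8 and 0.8. The 485 mg/kg columns are red in nearly every row, the 48.5 mg/kg columns are paler and vary between animals, and the Psmd10 row stays pale at all doses.

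The rise was small for each gene, and it was read against a small error. The median SE of the 34 changes was 0.05, below that of all but 4.31% of probe sets, and their mean levels lay between 8.35 and 12.2, above the array medians of 5.31 to 5.38. A change at 485 mg/kg above the members' median was seen in 2.48% of all probe sets. In bulk liver, more RNA per cell and more cells of a type that holds the RNA cannot be told apart.

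All subunits of the alpha ring rose at 485 mg/kg and most of them at 48.5 mg/kg. At 485 mg/kg 7 of 7 were called higher, with a median change of 0.46, and at 48.5 mg/kg 5 of 7 with a median of 0.20. Psma1, the alpha subunit with the largest change, read 10.71, 10.81 and 10.88 (lowest, median and highest of 6 animals) in vehicle, 10.81, 11.10 and 11.21 at 48.5 mg/kg, and 11.37, 11.51 and 11.62 at 485 mg/kg. At the lower doses it read 10.71, 10.80 and 10.85 (0.0485 mg/kg), 10.65, 10.80 and 10.89 (0.485 mg/kg) and 10.87, 10.95 and 11.00 (4.85 mg/kg). All 485 mg/kg animals thus lay above every other animal, and 5 of 6 animals at 48.5 mg/kg lay above all vehicle animals. The change of Psma1 was 0.25 ± 0.06 (SE, n = 6 per group, adjusted p = 0.00551) at 48.5 mg/kg and 0.70 ± 0.06 (1.62-fold, adjusted p = 5.71e-12) at 485 mg/kg.

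Psma7 read 11.11, 11.25 and 11.30 in vehicle, 11.35, 11.48 and 11.60 at 48.5 mg/kg and 11.64, 11.76 and 12.03 at 485 mg/kg, so the 3 groups did not overlap. Its values were 11.19, 11.24 and 11.30 at 0.0485 mg/kg, 11.19, 11.25 and 11.28 at 0.485 mg/kg and 11.18, 11.27 and 11.35 at 4.85 mg/kg, all close to vehicle. It changed by 0.26 ± 0.05 (adjusted p = 0.00276) and 0.57 ± 0.05 (adjusted p = 3.73e-10) at 48.5 and 485 mg/kg. Psma5 read 11.03, 11.12 and 11.18 in vehicle, 11.13, 11.32 and 11.45 at 48.5 mg/kg and 11.49, 11.56 and 11.73 at 485 mg/kg. At the lower doses Psma5 stayed near vehicle, at 10.89, 11.10 and 11.16 (0.0485 mg/kg), 11.00, 11.11 and 11.15 (0.485 mg/kg) and 11.10, 11.12 and 11.20 (4.85 mg/kg). Its changes were 0.20 ± 0.05 (adjusted p = 0.0330) and 0.46 ± 0.05 (adjusted p = 3.54e-08), and the 485 mg/kg animals again lay above all others. The call at 48.5 mg/kg was lost in 9 of 21 alternative settings (adjusted p 0.00993 to 0.134).

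Psma3 had the smallest change of the ring at 485 mg/kg and read much the same at both top doses. It changed by 0.25 ± 0.06 (adjusted p = 0.0206) at 48.5 mg/kg and by 0.28 ± 0.06 (adjusted p = 0.00201) at 485 mg/kg, and the difference between those doses was 0.02 ± 0.06 (adjusted p = 0.916, 95% confidence interval -0.11 to 0.16). All 6 animals at 48.5 mg/kg but 4 of 6 at 485 mg/kg lay above every vehicle animal. The value of Psma3 is uncertain because the array also holds its close copy Psma3l. The probe set assigned to both genes changed by 0.16 ± 0.05 (adjusted p = 0.0457) and 0.37 ± 0.05 (adjusted p = 1.0e-07). The other members of the ring, Psma2, Psma4 and Psma6, changed by 0.42 to 0.46 at 485 mg/kg.

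Subunits of the beta ring rose at the top dose, and some of them one step below. At 485 mg/kg 6 of 6 measured subunits were called higher, with a median change of 0.44, and at 48.5 mg/kg 2 of 6, Psmb3 and Psmb4, with a median of 0.16. Psmb3, a structural beta subunit, read 10.44, 10.52 and 10.74 in vehicle, 10.69, 10.81 and 10.98 at 48.5 mg/kg and 11.07, 11.17 and 11.31 at 485 mg/kg. It read 10.39, 10.50 and 10.73 at 0.0485 mg/kg, 10.48, 10.54 and 10.65 at 0.485 mg/kg, and 10.59, 10.67 and 10.73 at 4.85 mg/kg. The 485 mg/kg animals stood apart, while 4 of 6 at 48.5 mg/kg exceeded the highest vehicle animal. The changes were 0.26 ± 0.06 (adjusted p = 0.00711) and 0.64 ± 0.06 (1.55-fold, adjusted p = 1.21e-10).

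Psmb7, which carries the trypsin-like site, read 9.80, 9.87 and 10.16 in vehicle, 9.99, 10.11 and 10.23 at 48.5 mg/kg and 10.26, 10.37 and 10.69 at 485 mg/kg. At the lower doses it read 9.59, 9.83 and 10.10 at 0.0485 mg/kg, 9.85, 9.91 and 10.13 at 0.485 mg/kg and 9.90, 9.98 and 10.24 at 4.85 mg/kg, overlapping vehicle. It was called higher at 485 mg/kg (0.49 ± 0.08, adjusted p = 1.83e-05) and not at 48.5 mg/kg (0.18 ± 0.08, adjusted p = 0.234). Psmb4, a structural subunit, read 12.03, 12.08 and 12.20 in vehicle, 12.20, 12.28 and 12.42 at 48.5 mg/kg and 12.45, 12.55 and 12.67 at 485 mg/kg. Its lower-dose values overlapped vehicle, at 11.97, 12.10 and 12.19 (0.0485 mg/kg), 12.04, 12.15 and 12.23 (0.485 mg/kg) and 12.08, 12.17 and 12.31 (4.85 mg/kg). The changes of Psmb4 were 0.19 ± 0.05 (adjusted p = 0.0245) and 0.45 ± 0.05 (adjusted p = 1.54e-08).

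Psmb5, which carries the chymotrypsin-like site and whose promoter is shown above, rose by 0.43 ± 0.05 at 485 mg/kg (adjusted p = 8.18e-08) and was not called at 48.5 mg/kg (0.15 ± 0.05, adjusted p = 0.131). Averaged with its 2 dim further probe sets, Psmb5 changed by 0.22 (adjusted p = 0.000187) and 0.02 (adjusted p = 0.886). Psmb1 and Psmb2 changed by 0.38 and 0.36 at 485 mg/kg. The probe set shared by Psmb6, the subunit with the caspase-like site, and Psmb6l1 changed by 0.51 ± 0.07 at 485 mg/kg (adjusted p = 2.33e-06) and by 0.14 ± 0.07 at 48.5 mg/kg (adjusted p = 0.387). Probe sets for all 3 catalytic subunits were thus called higher at the top dose, with the Psmb6 reading not separable from its copy.

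**Figure D2:**
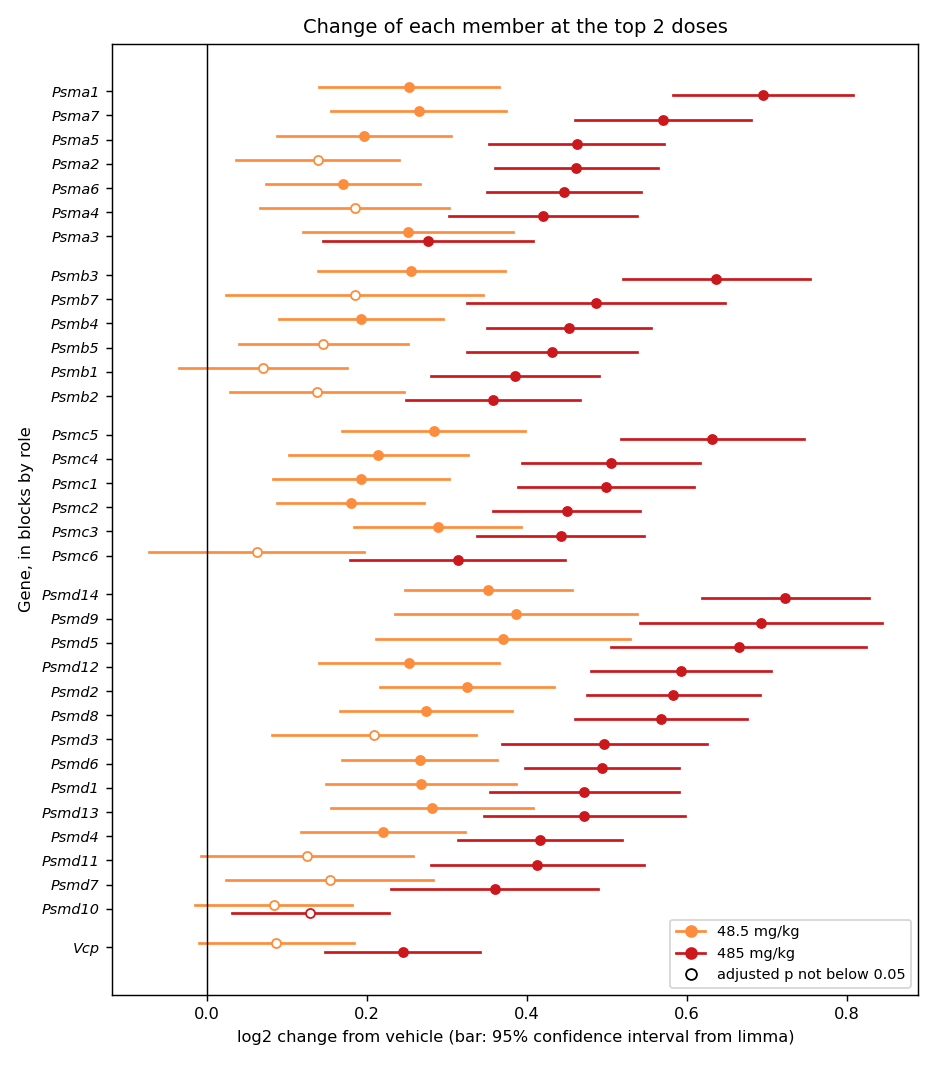
Log2 change from vehicle of each of the 34 genes (rows, in blocks by role) at 48.5 mg/kg (orange) and 485 mg/kg (red), with points for the limma estimate, bars for the 95% confidence interval and open points where the adjusted p was not below 0.05. The 485 mg/kg estimates run from 0.13 to 0.72 and Psmd10 is the one open red point; Psma3 has the closest pair of estimates.

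All ATPases of the 19S base rose at 485 mg/kg. The 6 of 6 called genes had a median change of 0.47, and at 48.5 mg/kg 5 of 6 were called with a median of 0.20. Psmc5 read 9.51, 9.63 and 9.74 in vehicle, 9.85, 9.90 and 10.05 at 48.5 mg/kg and 10.18, 10.26 and 10.37 at 485 mg/kg. These 3 groups did not overlap, whereas the lower doses did overlap vehicle, with 9.49, 9.66 and 9.79 (0.0485 mg/kg), 9.53, 9.73 and 9.80 (0.485 mg/kg) and 9.57, 9.74 and 9.78 (4.85 mg/kg). The changes of Psmc5 were 0.28 ± 0.06 (adjusted p = 0.00198) and 0.63 ± 0.06 (1.55-fold, adjusted p = 9.30e-11).

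Psmc4 read 9.90, 9.95 and 10.09 in vehicle, 10.07, 10.18 and 10.33 at 48.5 mg/kg and 10.40, 10.45 and 10.62 at 485 mg/kg. The lower doses gave 9.86, 9.94 and 10.12 (0.0485 mg/kg), 9.85, 9.99 and 10.13 (0.485 mg/kg) and 9.98, 10.06 and 10.17 (4.85 mg/kg). Only the 485 mg/kg animals were clear of the vehicle range, and the changes were 0.21 ± 0.06 (adjusted p = 0.0208) and 0.51 ± 0.06 (adjusted p = 8.89e-09). Averaged with its dim second probe set, Psmc4 changed by 0.07 (adjusted p = 0.504) and 0.24 (adjusted p = 0.000497), so the call at 48.5 mg/kg was lost. Psmc1 read 9.56, 9.60 and 9.71 in vehicle, 9.69, 9.80 and 9.89 at 48.5 mg/kg and 10.02, 10.09 and 10.25 at 485 mg/kg. Its lower-dose values were 9.54, 9.59 and 9.79 (0.0485 mg/kg), 9.46, 9.67 and 9.78 (0.485 mg/kg) and 9.59, 9.69 and 9.80 (4.85 mg/kg). Psmc1 likewise separated from vehicle in all animals at 485 mg/kg and in 5 of 6 at 48.5 mg/kg, with changes of 0.19 ± 0.05 (adjusted p = 0.0395) and 0.50 ± 0.05 (adjusted p = 8.46e-09). The call of Psmc1 at 48.5 mg/kg was lost in 12 of 21 alternative settings (adjusted p 0.0173 to 0.108).

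Psmc2 and Psmc3 changed by 0.45 and 0.44 at 485 mg/kg. Psmc6 changed least of the ATPases, by 0.31 ± 0.07 at 485 mg/kg (adjusted p = 0.000696), and at 48.5 mg/kg it was the one ATPase not called (0.06 ± 0.07, adjusted p = 0.725). Averaged over its 3 probe sets, Psmc6 changed by 0.25 (adjusted p = 0.00443) at 485 mg/kg and 0.11 (adjusted p = 0.408) at 48.5 mg/kg.

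The non-ATPase group holds ubiquitin receptors, most of the lid and 3 chaperones of 19S assembly. It contained the gene with the largest change and the gene with the smallest. At 485 mg/kg 13 of 14 were called higher with a median change of 0.50, and at 48.5 mg/kg 10 of 14 with a median of 0.27. Psmd14, the lid deubiquitinase that removes ubiquitin chains as a substrate enters, read 9.79, 9.93 and 9.98 in vehicle, 10.05, 10.25 and 10.44 at 48.5 mg/kg and 10.57, 10.61 and 10.69 at 485 mg/kg. Its lower-dose values were 9.85, 9.94 and 9.99 (0.0485 mg/kg), 9.86, 9.93 and 10.06 (0.485 mg/kg) and 9.96, 10.01 and 10.13 (4.85 mg/kg). Vehicle, 48.5 and 485 mg/kg animals formed 3 ranges without overlap. The mean went from 9.90 ± 0.08 (SD, n = 6) in vehicle to 10.62 ± 0.05 at 485 mg/kg, a change of 0.72 ± 0.05 (SE, 1.65-fold, adjusted p = 3.39e-13), and the change at 48.5 mg/kg was 0.35 ± 0.05 (adjusted p = 2.52e-05).

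Psmd9 and Psmd5, chaperones that hold ATPase subunits during 19S assembly, followed in size. Psmd9 read 8.17, 8.46 and 8.55 in vehicle, 8.64, 8.82 and 8.88 at 48.5 mg/kg and 8.90, 9.10 and 9.34 at 485 mg/kg. The lower doses gave 8.21, 8.43 and 8.60 (0.0485 mg/kg), 8.29, 8.46 and 8.65 (0.485 mg/kg) and 8.53, 8.60 and 8.73 (4.85 mg/kg). The ranges at 48.5 and 485 mg/kg lay one above the other and both above vehicle. The changes of Psmd9 were 0.39 ± 0.07 (adjusted p = 0.00142) and 0.69 ± 0.07 (1.62-fold, adjusted p = 6.56e-09). Averaged with its dim second probe set, they were 0.22 (adjusted p = 0.0123) and 0.39 (adjusted p = 5.87e-07).

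Psmd5 read 9.66, 9.71 and 10.08 in vehicle, 9.97, 10.12 and 10.38 at 48.5 mg/kg and 10.30, 10.41 and 10.63 at 485 mg/kg. The lower doses gave 9.67, 9.82 and 9.92 (0.0485 mg/kg), 9.63, 9.84 and 10.01 (0.485 mg/kg) and 9.70, 9.89 and 10.04 (4.85 mg/kg). The 48.5 and 485 mg/kg ranges overlapped, and 1 vehicle animal was far above the other 5. The changes of Psmd5 were 0.37 ± 0.08 (adjusted p = 0.00392) and 0.66 ± 0.08 (adjusted p = 4.64e-08).

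Psmd10, the oncoprotein gankyrin and the third chaperone of the ATPase ring among the Psmd genes, was the one gene not called at 485 mg/kg. It read 8.40, 8.52 and 8.62 in vehicle, 8.48, 8.62 and 8.69 at 48.5 mg/kg and 8.61, 8.64 and 8.70 at 485 mg/kg. The 485 mg/kg animals clustered in the upper part of the vehicle range or just above it, with 4 of 6 above all vehicle animals. The change was 0.13 ± 0.05 (95% confidence interval 0.03 to 0.23, adjusted p = 0.0681), and over 21 alternative settings the adjusted p ran from 0.0310 to 0.196, with 5 below the threshold. Whether Psmd10 differed in response from Psmd5 or Psmd9 was not tested.

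Among the remaining Psmd genes, the ubiquitin receptors Psmd4 and Psmd2 changed by 0.42 and 0.58 at 485 mg/kg, and the scaffold subunit Psmd1 by 0.47. The other lid subunits among the Psmd genes ran from 0.36 for Psmd7 to 0.59 for Psmd12, with Psmd3, Psmd6, Psmd8, Psmd11 and Psmd13 between them. All of these Psmd genes were called higher. Sem1, a small lid subunit outside the rule, is counted below among the proteasome-bound factors. It was not called at 485 mg/kg (-0.07 ± 0.04, adjusted p = 0.353).

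Vcp rose at 485 mg/kg, with one of the smallest changes of the 34 genes. It read 11.55, 11.66 and 11.72 in vehicle, 11.66, 11.75 and 11.79 at 48.5 mg/kg and 11.81, 11.89 and 11.94 at 485 mg/kg. The lower doses gave 11.56, 11.60 and 11.84 (0.0485 mg/kg), 11.59, 11.69 and 11.79 (0.485 mg/kg) and 11.68, 11.72 and 11.79 (4.85 mg/kg). All 485 mg/kg animals lay above every vehicle and every 48.5 mg/kg animal, and 1 animal at 0.0485 mg/kg reached into their range. The change was 0.24 ± 0.05 (1.18-fold, adjusted p = 0.000255) at 485 mg/kg and 0.09 ± 0.05 (adjusted p = 0.400, 95% confidence interval -0.01 to 0.18) at 48.5 mg/kg. Among the 34 genes, Psmd10 alone had a smaller estimate at the top dose, and differences between genes were not tested.

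**Figure D3:**
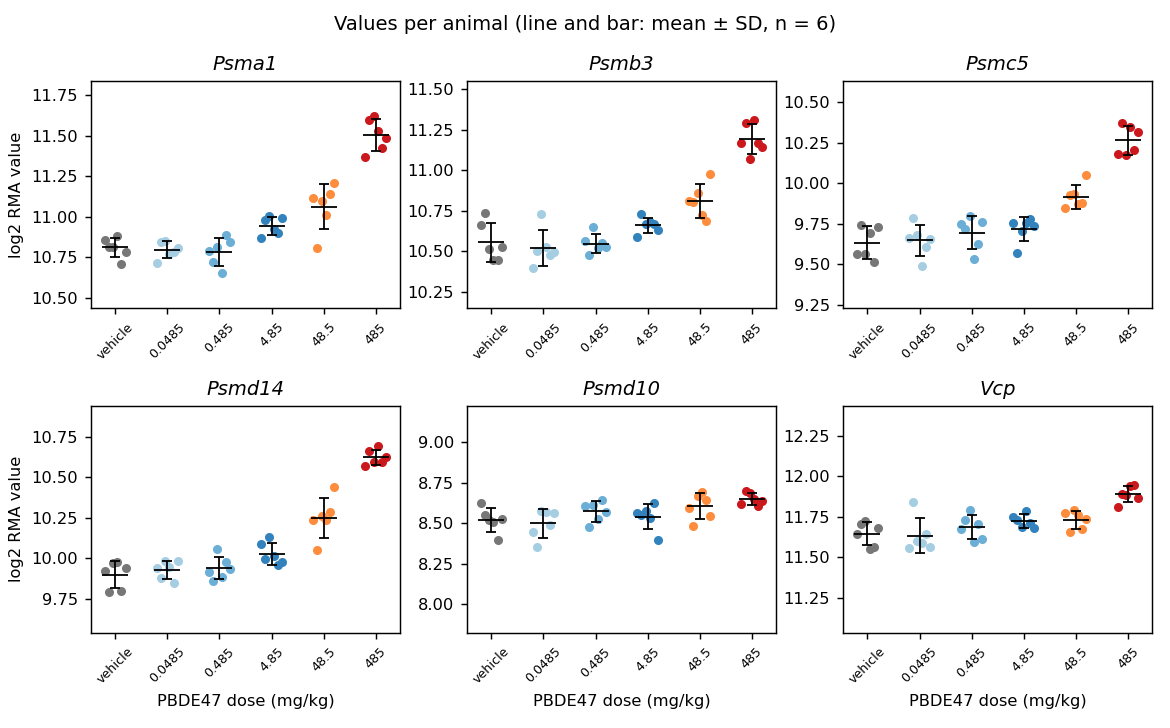
Log2 RMA value (vertical axis, the same span of log2 units in each panel) of every animal by dose in mg/kg for the gene with the largest change in each role group, for Psmd10 and for Vcp; points are animals, lines and bars are mean ± SD (n = 6). The red 485 mg/kg points of Psma1, Psmb3, Psmc5 and Psmd14 lie clear of all other groups, whereas those of Psmd10 overlap the vehicle points.

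At the 3 lowest doses 0 of 34 genes were called in limma. At 0.0485 and 0.485 mg/kg 0% of all probe sets were called, and the medians of the 34 changes were -0.00 and 0.03. At an unadjusted p under 0.05 there were 0 genes at either dose, where 4.89% and 4.45% of all probe sets passed. At 4.85 mg/kg 0.0193% of all probe sets were called higher and 0% lower. At an unadjusted p under 0.05 there were 5 genes, Psma1, Psmc3, Psmd2, Psmd9 and Psmd14, where 6.46% of all probe sets passed. The changes of these 5 were 0.13 to 0.21, the median of the 34 was 0.07, and 31 of 34 estimates were above 0. All of them shared the same vehicle animals and arrays, so the estimates are not independent. Psmd9 had the largest estimate at 4.85 mg/kg, 0.21 ± 0.07 (unadjusted p = 0.00707, adjusted p = 0.567), and 5 of 6 animals above all vehicle animals.

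The step from 48.5 to 485 mg/kg carried a further rise. In this comparison 29 of 34 genes were called higher and 0 lower, where 2.55% of all probe sets were called higher and 2.31% lower. The median difference was 0.28, the largest was 0.44 ± 0.06 for Psma1 (adjusted p = 1.12e-06), and 24 genes had no overlap between the groups, as did 1.45% of all probe sets. The genes not called were Psma3, Psmc3, Psmd7, Psmd10 and Psmd13, with differences of 0.02 to 0.21. Vcp passed narrowly, at 0.16 ± 0.05 (adjusted p = 0.0457).

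Group means had their highest value at 485 mg/kg and their second highest at 48.5 mg/kg in 34 of 34 genes, an order found in 11% of all probe sets. At 4.85 mg/kg the mean lay above those of vehicle and both lower doses in 22 of 34 genes and in 27.4% of all probe sets. In 10 of 34 genes the mean did not fall at any step from vehicle to the top dose, as in 0.693% of all probe sets.

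Single animals could be read from the median of the 34 genes, each taken relative to its vehicle mean. That median was -0.08 to 0.06 in the vehicle animals, -0.03 to 0.05 at 0.0485 mg/kg, -0.07 to 0.09 at 0.485 mg/kg and 0.04 to 0.11 at 4.85 mg/kg. It was 0.13 to 0.32 at 48.5 mg/kg and 0.41 to 0.58 at 485 mg/kg, so that these groups overlapped neither each other nor vehicle. At 4.85 mg/kg 3 of 6 animals exceeded the highest vehicle animal (0.0605), as did replicates 3 (0.0938) and 6 (0.0624) at 0.485 mg/kg. An animal at 485 mg/kg had 33 or 34 genes above the highest vehicle value, and an animal at 48.5 mg/kg had between 16 and 33. Such genes also occurred at doses without a call: 5 to 16 per animal at 4.85 mg/kg, 0 to 15 at 0.485 mg/kg and 1 to 9 at 0.0485 mg/kg. The matching share of all probe sets per animal was not counted. At 48.5 mg/kg replicate 2 had the lowest median and replicate 6 the highest. The SD of the medians was much the same at both top doses, 0.0652 at 48.5 mg/kg and 0.0645 at 485 mg/kg.

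Within dose groups the genes varied together from animal to animal. After each group's mean was removed, the Pearson correlation over the 36 arrays averaged 0.304 over the 561 pairs of members, and 479 pairs were above 0. The average over all pairs of probe sets was 0.00106, a value that normalization between arrays tends to hold near 0. Probe sets as bright as the members were not compared, so whether the members' average is particular to them was not tested. The average was 0.384 among the 13 genes of the 20S core and 0.285 among the 20 genes of the 19S cap and its chaperones. The closest pairs were Psmb1 with Psmb4 (0.819) and Psmb2 with Psmb5 (0.801). Psma3 and Psmb7 had median correlations with the other members below 0 (-0.08 and -0.15). These correlations are descriptions, and all pairs share the same arrays and their normalization.

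Second probe sets gave a partial check on the choice of 1 per gene. Of 11 further probe sets assigned to 7 of the genes, 5 were called higher at 485 mg/kg, 0 lower and 6 not called. A second probe set of Psmd14 changed by 0.74 ± 0.07 (adjusted p = 2.49e-10) and that of Psmd7 by 0.54 ± 0.05 (adjusted p = 2.01e-10). For Psmd7 this exceeded the 0.36 ± 0.06 of the brightest probe set. Averaging over probe sets moved Psmd11 from 0.41 to 0.22 at 485 mg/kg (adjusted p = 0.000802). The probe sets not called included 5 with mean levels of 3.51 to 5.21, below the array medians. The remaining one, of Psmc6, had a mean of 7.76, above the array medians, and changed by 0.15 ± 0.08 (adjusted p = 0.246).

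Genes that assemble, attach to or open the proteasome rose at 485 mg/kg in part. Over all probe sets 7.81% were called higher at that dose and 2.57% at 48.5 mg/kg. Of 11 measured assembly chaperones and proteasome-bound factors, 8 were called higher and 0 lower at 485 mg/kg (median 0.29), and 3 of 11 at 48.5 mg/kg. Usp14, a deubiquitinase bound to the cap, rose by 0.62 ± 0.06 (adjusted p = 1.25e-09), Psmg2, a chaperone of the alpha ring, by 0.56 ± 0.08 (adjusted p = 3.55e-06), and Adrm1, a ubiquitin receptor of the cap, by 0.36 ± 0.08 (adjusted p = 0.000503). Of 6 measured genes for the immunoproteasome and for activators, 3 were called higher at 485 mg/kg and 0 at 48.5 mg/kg. They were Psme4 (0.53 ± 0.06, adjusted p = 4.69e-09), which encodes the activator PA200, and both PA28 genes of the cytosol, Psme1 (0.40 ± 0.06, adjusted p = 4.75e-06) and Psme2 (0.31 ± 0.07, adjusted p = 0.00118). The catalytic subunits of the immunoproteasome, Psmb8, Psmb9 and Psmb10, read 0.14 ± 0.22, 0.23 ± 0.18 and 0.15 ± 0.13 and were not called, with errors larger than those of the standard subunits.

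Regulators were mixed. Of 7 measured, 3 were called higher at 485 mg/kg and 0 at 48.5 mg/kg, with a median change of 0.06 at 485 mg/kg. Over all probe sets the shares called higher at these doses were 7.81% and 2.57%. Nfe2l1 rose by 0.46 ± 0.06 (adjusted p = 1.75e-06) at 485 mg/kg and read 0.18 ± 0.06 (adjusted p = 0.141) at 48.5 mg/kg. Nfe2l2 read -0.02 ± 0.13 (adjusted p = 0.947). Keap1, the adaptor that holds NRF2 for degradation, rose by 0.39 ± 0.06 (adjusted p = 5.60e-06), and Maff, a small MAF partner, by 1.24 ± 0.23 (adjusted p = 9.92e-05) from a mean of 3.78, below the array medians, so that its size is not exact.

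Of 12 measured targets of NRF2 that are no proteasome genes, 11 were called higher at 485 mg/kg (median 0.86, range 0.23 to 2.73). At 48.5 mg/kg 5 of the 12 were called higher. The shares over all probe sets were 7.81% at 485 mg/kg and 2.57% at 48.5 mg/kg. The lowest changes at 485 mg/kg were 0.23 ± 0.05 for Taldo1 and 0.41 ± 0.26 for Slc7a11, which was not called (adjusted p = 0.330), and the list was not tested against the proteasome genes. Nqo1, a quinone reductase, changed by 2.73 ± 0.12 (adjusted p = 1.76e-18), Gsr, glutathione reductase, by 1.87 ± 0.10 (adjusted p = 1.43e-16), and Me1, malic enzyme, by 1.64 ± 0.12 (adjusted p = 3.23e-13) at 485 mg/kg.

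The counts around VCP, ubiquitin and folding stand beside 7.81% of all probe sets called higher at 485 mg/kg and 2.57% at 48.5 mg/kg. Around VCP, 11 of 27 measured cofactors and shuttle factors were called higher and 0 lower at 485 mg/kg (median 0.10), and 3 of 27 at 48.5 mg/kg. The largest changes were those of the shuttle factor Ubqln2 (0.60 ± 0.06, adjusted p = 1.80e-09), of Ubxn8, which tethers VCP to the endoplasmic reticulum (0.49 ± 0.08, adjusted p = 1.34e-05), and of the VCP cofactor Nsfl1c (0.43 ± 0.07, adjusted p = 3.08e-05). Other genes of this list that act at the endoplasmic reticulum were mixed at 485 mg/kg. Ubxn4 (0.33 ± 0.05) and Svip (0.27 ± 0.08) were called higher. Derl1, Derl2, Selenos, Syvn1, Sel1l, Faf2, Ube2j1 and Ube2g2 were not called, with changes from -0.19 for Selenos to 0.12 for Ube2j1. Of 6 measured genes for ubiquitin and its carriers, 2 were called higher at 485 mg/kg and 1 at 48.5 mg/kg, namely the conjugating enzymes Ube2k (0.32 ± 0.05, adjusted p = 5.43e-06) and Ube2l3 (0.30 ± 0.06, adjusted p = 0.000119) at the top dose. The ubiquitin genes themselves were not measured by probe sets of their own. Of 17 heat shock and cytosolic folding genes, 11 were called higher and 0 lower (median 0.28) at 485 mg/kg. At 48.5 mg/kg 3 were called higher, Cct3, Cct6a and Cct8. At 485 mg/kg the calls outside the Cct genes were Hsp90ab1, Hsph1, Bag3 and Stip1. Hspa4, Dnajb1, Dnaja1, Hspb1, Hsf1 and Tcp1 were not called at either dose. The 3 genes of this list with the largest change at 485 mg/kg encode subunits of the chaperonin that folds actin and tubulin: Cct6a (0.57 ± 0.06, adjusted p = 1.85e-08), Cct8 (0.50 ± 0.06, adjusted p = 8.19e-08) and Cct2 (0.42 ± 0.05, adjusted p = 8.93e-08).

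**Figure D4:**
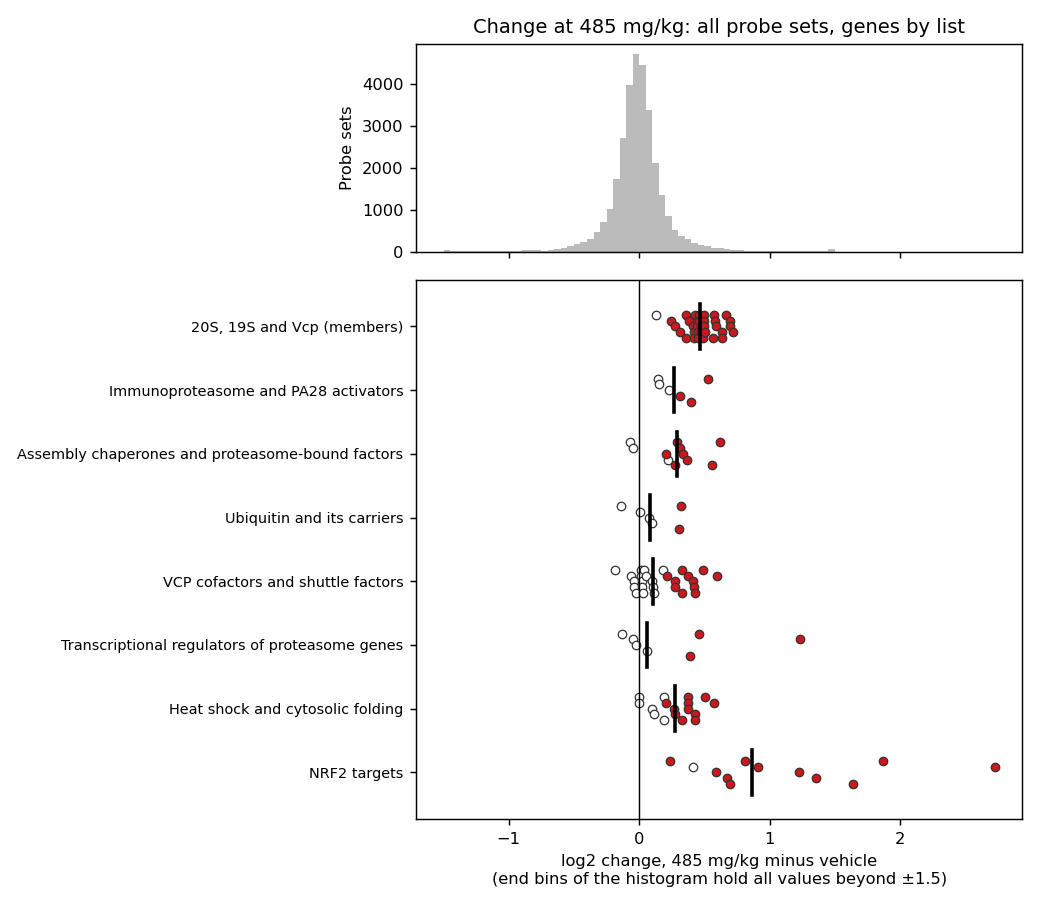
Log2 change at 485 mg/kg against vehicle for all probe sets (upper panel, number of probe sets per bin) and for the genes of each list (lower panel, 1 point per gene, filled where called higher, black bars at the list medians). The proteasome genes sit between 0.13 and 0.72 with a median of 0.47, the NRF2 targets reach 2.73, and the ubiquitin, VCP cofactor and regulator lists hold both filled points and open points near 0.

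Some markers of liver cell types were called at the same dose as the proteasome genes. Over all probe sets 7.81% were called higher and 7.22% lower at 485 mg/kg, and 2.57% and 0.821% at 48.5 mg/kg. A single call in a short list therefore says little about its cell type. At 485 mg/kg 4 of 7 hepatocyte markers were called lower (median -0.11), and their summed linear signal was 146859 to 151066 beside 160749 to 163608 in vehicle, without overlap. At 48.5 mg/kg 1 of 7 (Fgb, -0.14 ± 0.04) was called lower, and the sums of 155493 to 158131 also lay below all vehicle animals. Alb read 15.05 with an SD of 0 at 48.5 mg/kg, the maximum of those arrays. Arrays of every group reached this same maximum, and quantile normalization can give the brightest probes like values in all arrays. Readings of the brightest hepatocyte markers may be held at this ceiling, so their sums are not an exact measure. Whether they were also saturated was not tested. The other markers called at 48.5 mg/kg were Rgs5 (0.84 ± 0.15) and Epcam (0.40 ± 0.10), which were higher, and Cd8a (-0.43 ± 0.10), which was lower. Of the Kupffer cell markers 3 of 6 were called lower at 485 mg/kg (median -0.50, sums 1836 to 3100 beside 3241 to 4258), of the erythroid markers 2 of 3 (median -0.55, sums 3422 to 6041 beside 6311 to 9384), of the endothelial markers 2 of 6 (median -0.18, sums 3322 to 3859 beside 3535 to 4180) and of the T and NK cell markers 1 of 7 (median -0.13, sums 217 to 269 beside 261 to 370). Low sums were not limited to that dose. The lowest Kupffer cell sums were 2120, 1928 and 2005 at 0.485, 4.85 and 48.5 mg/kg, below all vehicle animals, with 0 of 6 markers called. The lowest erythroid sums were 5270, 4857 and 4549 at 0.0485, 4.85 and 48.5 mg/kg, also below vehicle, with 0 of 3 called. At 485 mg/kg 1 stellate marker of 6 was called higher (Rgs5, 0.81 ± 0.15). The stellate median was -0.03, with 3 of 6 below 0 and sums of 889 to 1203 beside 825 to 1250. Of the 4 cholangiocyte markers 1 was called higher (Epcam, 0.60 ± 0.10), but the median was -0.13, with the other 3 below 0. The cholangiocyte sums of 898 to 1099 beside 626 to 797 mostly reflect Epcam. Its mean at 485 mg/kg was 9.73, beside 3.88 to 5.73 for the others. B cell (0 of 2 called, sums 55.5 to 82.3 beside 65.0 to 84.2) and neutrophil (0 of 3, sums 57.4 to 158 beside 92.9 to 120) markers were not called. The part of these shifts in the proteasome result was not tested. RNA quality, read as the 3' minus 5' signal of control probe sets, overlapped between vehicle and 485 mg/kg for Gapdh (-0.14 to 0.01 and -0.13 to -0.04), Actb (1.13 to 1.46 and 1.06 to 1.33) and hexokinase (1.12 to 1.40 and 1.13 to 1.45).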

How the data were processed

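The authors deposited log2 values made with RMA and the R package affy, per the submitters' processing notes, without versions. RMA is known to correct background, quantile normalize probes between arrays and summarize probe sets by median polish. Of 31099 probe sets 57 controls were left out, 20826 had 1 gene symbol, 436 several and 9780 none; 20758 matched RefSeq (GRCr8) by Entrez identifier.

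A one-way model over all 36 arrays was fitted with lmFit and eBayes of limma 3.58.1 under R 4.3.3, two-sided, with Benjamini-Hochberg adjustment over 31042 probe sets per comparison. The R/maanova test that the series names was not run, and an unmoderated test on the same fit stood in for it. The members, lists and tests were chosen with earlier results of these data known. Lists are described by counts and medians, without a test. The rule named Vcp and, per role group, the 3 members with the largest change at 485 mg/kg with their group values, and up to 3 called genes per list with Nfe2l1 and Nfe2l2; Psmd10 and Psma3 were described after their values were seen. The procedure was tested on simulated data. No depth exists for arrays, and their number limits the precision. Alternatives covered normalization, filters, variance settings, a block for the replicate number, single arrays left out, the 12 arrays compared and averaging over the probe sets of a gene.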

Additional observations from a re-analysis of the deposited data

Results flagged for a closer look

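In 5 of 84 series of 6 arrays (14 genes in 6 groups), 1 array lay far from the other 5 by Dixon's criterion, and chance alone flags about 5% of series. The Psmd5 value of vehicle replicate 6 was 10.1 beside 9.66 to 9.75 in the other vehicle animals. The change of Psmd5 at 485 mg/kg stayed between 0.60 and 0.73 over all 21 alternatives. The Psma5 value of replicate 1 at 0.0485 mg/kg was 10.9 beside 11.1 to 11.2. The Vcp value of replicate 2 at 0.0485 mg/kg was 11.8, beside others that lay between 11.56 and 11.65. The Psmc5 value of replicate 2 at 4.85 mg/kg was 9.57 beside 9.71 to 9.78. The Psmb7 value of replicate 5 at 485 mg/kg was 10.7 beside 10.3 to 10.4, and the change of Psmb7 at that dose stayed between 0.42 and 0.53 over its 21 alternatives.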

How the results depend on the processing

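Over 21 alternatives per comparison (9 other settings and 12 fits without 1 array), the 34 changes kept their direction at 48.5 and 485 mg/kg. At 485 mg/kg 33 genes were called in every alternative, and the count was 33 to 34. At 48.5 mg/kg the count of 22 fell to 9 when only the 12 arrays compared were fitted, a fit with fewer arrays to estimate the spread, and was 17 to 25 without 1 array (17 without vehicle replicate 5, 25 without replicate 2 at 48.5 mg/kg); the same 9 genes were called in every alternative. The median change was 0.43 to 0.48 at 485 mg/kg and 0.18 to 0.23 at 48.5 mg/kg. For 485 against 48.5 mg/kg, the count of 29 was 21 to 32. At the 3 lower doses 0 genes were called throughout. Replicate numbers did not pair the arrays, since 19 of 90 same-numbered pairs had deviations correlated above 0.1, and in 35 of 180 cases the best match carried the same number. With the replicate number as a block, 21 genes were called at 48.5 mg/kg, 33 at 485 mg/kg, 28 between those doses and 0 elsewhere. Arrays give no absolute amounts, genes read by dim or shared probe sets have uncertain changes, and protein or proteasome activity was not measured here.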
